A study of Mus musculus with 12 samples.

Results

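The mRNAs for the proteins of the cytosolic ribosome were followed in the livers of mice with and without the clock gene Bmal1. Genes were taken by symbol (Rpl, Rps and Rplp followed by a number, without copies named as pseudogenes and without the Rps6k kinases), and each gene was represented by its transcript with the highest mean RPKM (reads per kilobase of transcript, scaled to the size of the library) over the 12 samples. This gave 83 genes of 22322 gene symbols, of which 48 encode proteins of the large subunit proper, 3 encode the stalk of that subunit and 32 encode proteins of the small subunit. Testing required 1 RPKM or more as the mean of any group, and 80 of the 83 genes passed. The 3 others are the paralogues Rpl10l, Rpl39l and Rpl3l, described at the end.

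Libraries had been made with a TruSeq RNA kit from total RNA of livers of male C57BL/6 mice aged 8 weeks, with 3 samples in each of 4 groups. WT mice were homozygous for Bmal1 flox/flox, with loxP sites around an exon of Bmal1 and no CRE stated. KO mice carried the same floxed alleles and in addition a CRE recombinase under a liver-specific promoter that is not named, so CRE itself and the loss of Bmal1 cannot be told apart. Both genotypes were sampled at circadian time 0 h (CT0) and 12 h (CT12), where CT0 is the time of the former lights-on, after 12 h light and 12 h dark cycles and 2 days in darkness. The sample titles and the study's methods give 3 mice per genotype and time, while a protocol text in the labels speaks of 2, so the p-values measure the spread between these samples.

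A ribosome joins a small subunit, which reads the mRNA, to a large subunit, which forms the peptide bond. Each protein is needed in nearly equal numbers, and in mammals most ribosomal protein mRNAs start with a run of pyrimidines (the terminal oligopyrimidine or TOP motif), through which the mTOR pathway and LARP1 control their translation together. In liver, feeding and the clock are known to act on ribosome production mainly at translation and at ribosomal RNA synthesis, neither of which RPKM values show. BMAL1, the product of Arntl, pairs with CLOCK and binds the E-box CACGTG.

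The annotated starts of these genes were read for the TOP motif. In the RefSeq promoter windows of GRCm38.p6, which run from 250 bases before to 50 bases from each annotated start, 61 of the 83 genes were found. A C at the annotated start followed by at least 4 more pyrimidines (read only on the strand that matches the mRNA) was present in 13 of the 61 (21.3%), against 3.01% of all 27025 genes with a window. The windows below show 6 of these genes, with 15 bases on either side of the start. The pyrimidines that run on from the annotated start are in capitals. Rpl14, Rpl15, Rpl28 and Rps6 are those of the 13 that passed the test below as higher in KO over both times. Their differences were 0.22, 0.22, 0.22 and 0.26 on the log2 scale. Rplp2 and Rps27 are shown from those that did not pass, with 0.11 and 0.09. Genes that did not pass had differences of up to 0.22, so the split is by the threshold and not by direction.
Rpl14 (chr9:120571502-120571531, + strand): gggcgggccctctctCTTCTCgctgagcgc
Rpl15 (chr14:18270972-18271001, - strand): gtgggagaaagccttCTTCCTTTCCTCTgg
Rpl28 (chr7:4792950-4792979, + strand): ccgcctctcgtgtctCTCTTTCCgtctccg
Rps6 (chr4:86857353-86857382, - strand): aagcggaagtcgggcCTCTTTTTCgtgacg
Rplp2 (chr7:141447636-141447665, + strand): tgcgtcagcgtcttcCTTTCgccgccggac
Rps27 (chr3:90213634-90213663, - strand): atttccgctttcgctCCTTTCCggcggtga
Counted from the annotated start onward, the run was 13 bases long in Rpl15, 9 in Rps6, 8 in Rpl28, 7 in Rps27, 6 in Rpl14 and 5 in Rplp2. In all 6 windows the base before the start is also a pyrimidine. The full runs are thus longer than these counts, and their order can differ. Within a gene the annotated start can lie a few bases from the one used in liver, so a start outside such a run says only that these letters are not at the annotated base. The E-box letters CACGTG, a palindrome, occurred in a window of 6 of the 61 genes (9.84%: Rpl13a, Rpl14, Rpl19, Rpl23, Rpl34 and Rps19). They occurred in 8.09% of all 27025 genes with a window and in 12% of the 7819 tested genes with a window. The letters CCGGAAG, the core bound by factors of the ETS family, searched on both strands, occurred in 24 of the 61 (39.3%), against 9.93% of all and 20.5% of the tested genes. These matches are descriptions of the sequence and not sites of binding.

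The samples held between 11460000 and 19020000 reads as recovered from the steps in the low values, so 1 read on a transcript of 500 bases was worth 0.105 to 0.174 RPKM. At CT0 the WT samples held 16900000 to 19020000 reads and the KO samples 11460000 to 14900000, so depth and genotype go together there. At CT12 they held 13410000 to 16130000 and 13240000 to 14420000, with overlap. The part of depth in the differences was not tested. Arntl, the targeted gene, had a mean of 15.9 ± 0.37 RPKM in WT and 6.37 ± 0.944 in KO at CT0, and of 1.05 ± 0.32 in WT and 3.99 ± 0.391 in KO at CT12 (SD, n = 3). These values sum reads over a whole transcript and do not show the floxed exon, so they check the genotype labels only in part. Of the liver markers, Alb (albumin) was the highest gene in every sample and fell by 0.93 at CT0 and by 1.05 at CT12 in KO on the log2 scale (limma, adjusted p = 0.0045 and 0.0003). With reads counted on 1 transcript per gene, the 10 highest genes took 16.3% to 19.6% of these reads in WT samples and 12.9% to 15.3% in KO samples. None of these 10 was a ribosomal protein gene.

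The ribosomal protein mRNAs together were higher in the livers of KO mice at both times. Summed over the 83 genes, the RPKM values were 19119, 19775 and 19163 in WT at CT0 and 20397, 21269 and 22108 in KO at CT0. At CT12 they were 18440, 18092 and 16570 in WT and 21094, 19996 and 23072 in KO. Every KO sample thus lay above every WT sample of either time, while the 2 times of one genotype overlapped in KO and not in WT. The means were 19353 ± 367 and 21258 ± 855 at CT0, 9.85% higher in KO, and 17701 ± 994 and 21387 ± 1559 at CT12, 20.8% higher in KO (SD, n = 3). From CT0 to CT12 the mean differed by -8.54% in WT and by 0.608% in KO. No test was made on a sum over genes chosen as a group.

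As a share of all summed RPKM (1 transcript per symbol) the genes held 4.13% ± 0.13 in WT and 4.68% ± 0.2 in KO at CT0, and 3.95% ± 0.163 in WT and 4.8% ± 0.244 in KO at CT12 (SD, n = 3). RPKM values are relative, and Alb alone took less of the KO libraries. With the 10 highest genes of each sample left out of the total, the shares were 5.21% ± 0.15 in WT and 5.64% ± 0.286 in KO at CT0, and 4.91% ± 0.148 and 5.72% ± 0.301 at CT12. On this scale the CT0 samples of the 2 genotypes overlapped, with 5.35% in the highest WT and 5.31% in the lowest KO sample, while the CT12 samples did not. In bulk tissue, fewer cells of a type and less RNA per cell cannot be told apart.

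**Figure D1:**
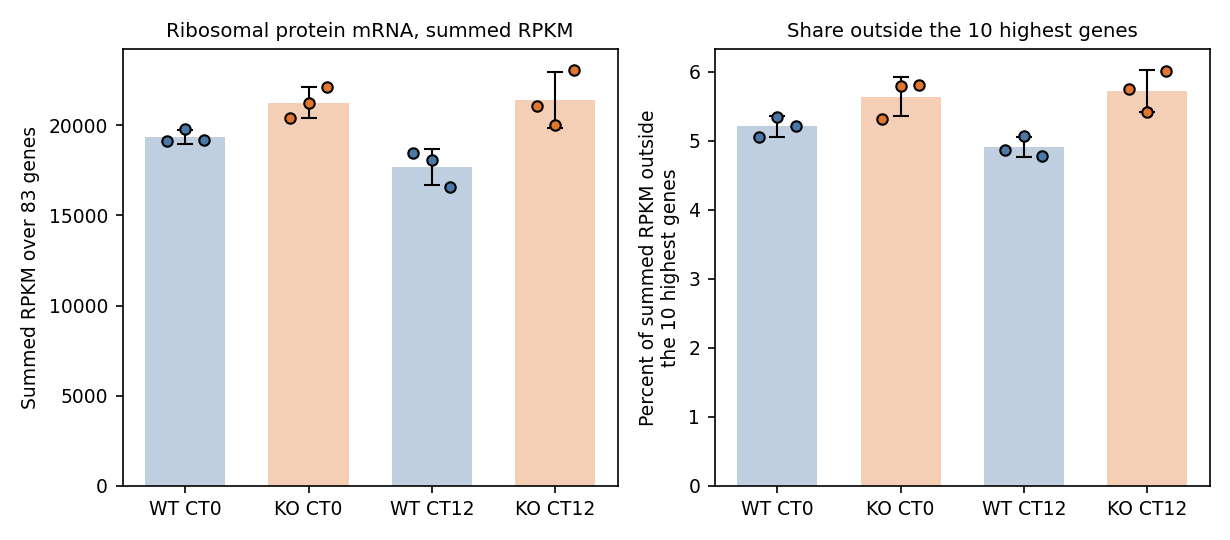
Left, RPKM summed over the 83 ribosomal protein genes in each sample; right, the percent that these genes made up of the RPKM outside the 10 highest genes of each sample. Points are samples, bars are group means and error bars are SD (n = 3): on the left all KO samples lie at 19996 or above and all WT samples at 19775 or below, and on the right the genotypes overlap at CT0.

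Singly, 28 of the 80 tested genes were higher in KO than in WT at CT12 and none was lower (limma on log2(RPKM + 1), Benjamini-Hochberg adjusted p under 0.05 over 10799 genes). That is 35% of the genes, where 6.97% of all tested genes were higher, 3.49% were lower and 10.5% passed in either direction. The median difference over the 80 genes was 0.28 on the log2 scale, with 78 genes above 0, against a median of 0.08 over all tested genes, of which 65.1% were above 0. The lowest KO sample lay above the highest WT sample for 62 of the 80 genes, where 20.4% of all tested genes did so. Of the large subunit, counted here with its stalk (51 genes, 48 of them tested), 17 genes were called. Among them were Rpl3, Rpl4, Rpl5, Rpl10, Rpl10a, Rpl12, Rpl13, Rpl13a, Rpl14, Rpl22l1, Rpl31, Rpl36a and Rplp1. Of the small subunit 11 of 32 were called, among them Rps7, Rps12, Rps16, Rps19, Rps23, Rps26 and Rps27a.

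The number of genes called at CT12 depended on single samples. Without WT CT12 replicate 3 only 4 genes were called, without KO CT12 replicate 3 there were 6, without KO CT12 replicate 1 there were 10 and without WT CT12 replicate 2 there were 14. With both replicates 3 of CT12 left out 1 gene remained past the threshold, Rpl22l1. With values rescaled to the reads outside the 10 highest genes, an alternative added after the data were seen, 6 genes were called at CT12 and the median difference was 0.20, against 0.02 over all tested genes. The median over the genes stayed between 0.22 and 0.32 when any 1 sample was left out.

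At CT0 no ribosomal protein gene passed the same test, and the background there was also low, with 1.86% of all tested genes called (1.02% higher and 0.843% lower). At an unadjusted p under 0.05 there were 22 of the 80 genes (14.2% of all tested genes), and no other tool was run. The median difference between KO and WT was 0.15 on the log2 scale, with 72 genes above 0, against 0.01 over all tested genes, of which 52.2% were above 0. KO lay above WT without overlap for 45 of the 80 genes, against 11.3% of all tested genes. With values rescaled to the reads outside the 10 highest genes the median was 0.06, against -0.06 over all tested genes.

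Averaged over both times, 39 of the 80 genes were higher and 1, Rps4y2, was lower in KO (50% called, where 11.5% of all tested genes were called, 7.44% higher and 4.03% lower). The median was 0.21 against 0.04 over all tested genes. The 39 comprised 26 of the 48 tested genes of the large subunit with its stalk and 13 of 32 genes of the small subunit. Of the 40 called, 25 had also been called at CT12. KO exceeded WT without overlap at both times for 41 genes, against 5.01% of all tested genes. The count over both times was 24, 23 and 22 without WT CT0 replicates 1, 2 and 3, 20 without WT CT12 replicate 3, 26 and 22 without KO CT0 replicates 2 and 3, and 23 without KO CT12 replicate 3. It was 10 with values rescaled to the reads outside the 10 highest genes, where the median was 0.13 against -0.02 over all tested genes.

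**Figure D2:**
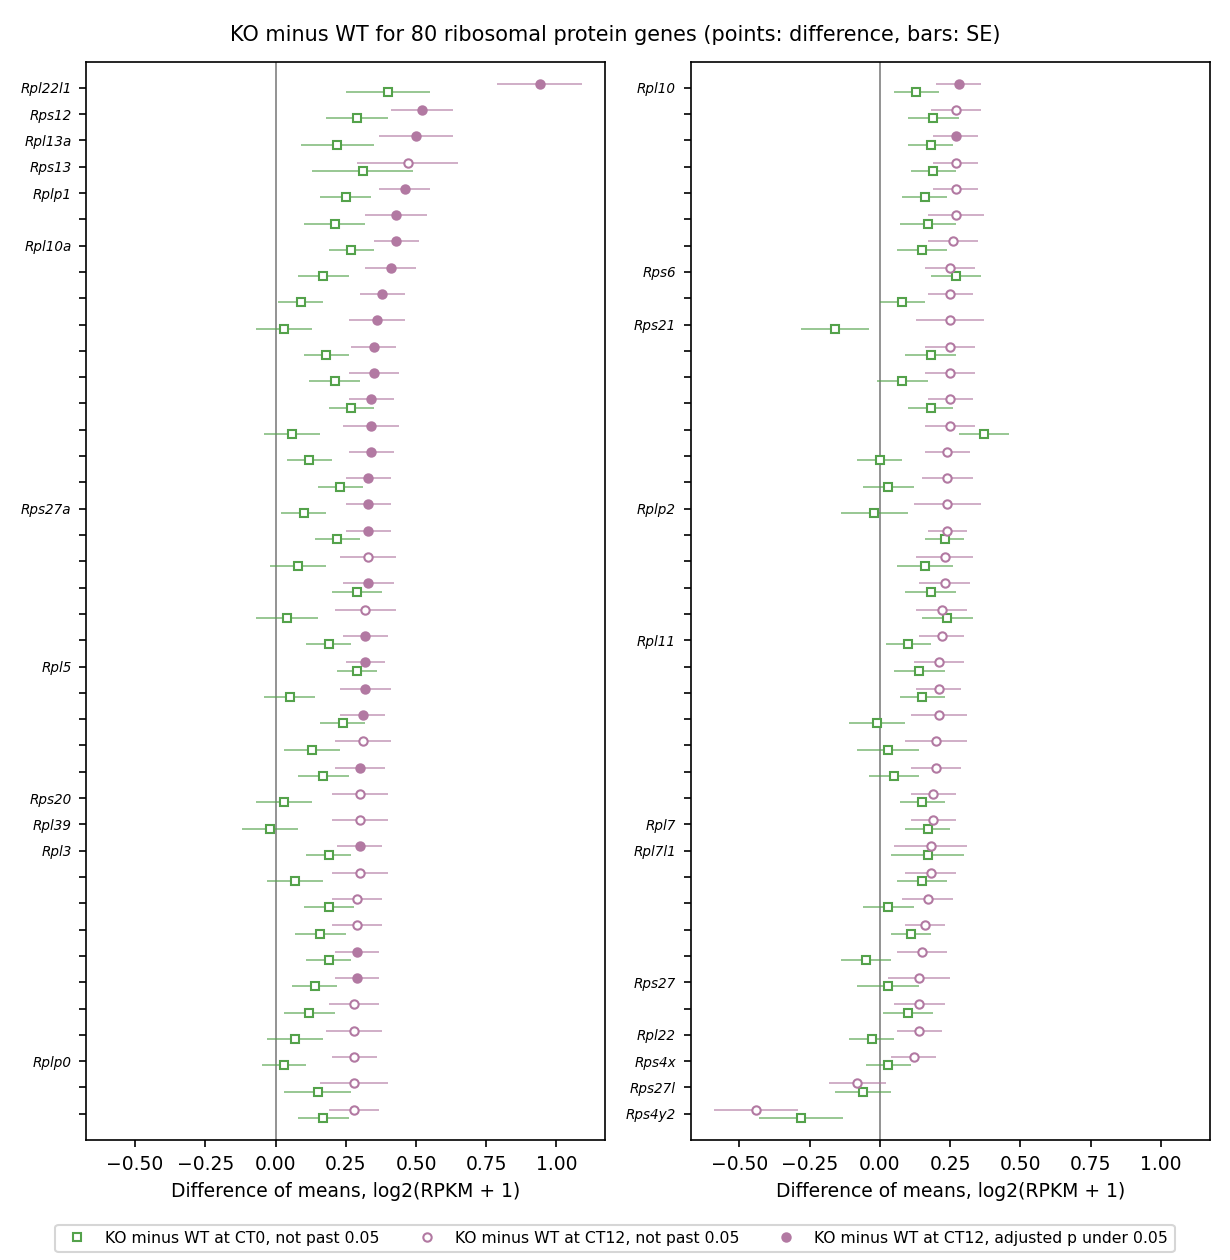
Difference between the KO and WT means on the log2(RPKM + 1) scale for each of the 80 tested genes at CT0 (squares) and CT12 (circles), sorted by the CT12 value, with the standard error as bars and names for the genes described singly. Filled symbols had an adjusted p under 0.05; 78 genes lie to the right of 0 at CT12 and 72 at CT0, and Rps4y2 and Rps27l lie to the left at both times.

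Whether the genotypes differed more at CT12 than at CT0 was asked by the interaction. No ribosomal protein gene passed (limma, 6 of 80 at an unadjusted p under 0.05, 12.3% of all tested genes, no other tool run), where 1.49% of all tested genes did (1.07% above 0 and 0.417% below). The difference at CT12 was nevertheless the larger for 75 of the 80 genes, as it was for 61.4% of all tested genes, with a median interaction of 0.13 against 0.07. Across the 80 genes the CT0 and CT12 differences had a Pearson's r of 0.65 and a Spearman's rho of 0.48, given as a description, since the genes share the same libraries.

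Between the 2 times a single ribosomal protein gene passed the test. In WT the median difference of CT12 against CT0 was -0.13, with 6 of 80 genes above 0, against -0.07 over all tested genes, of which 38.8% were above 0. The gene was Rplp1, which fell (background 11.6% called, 3.71% higher and 7.88% lower), and the CT12 samples lay below the CT0 samples without overlap for 30 genes, where 22.9% of all tested genes did so. In KO the median was 0.01, with 44 of 80 genes above 0 (49.7% of all tested genes), and no gene was called (limma, background 2.43%, 1.1% higher and 1.32% lower). None of the 80 had an unadjusted p under 0.05, where 19.9% of all tested genes did, and no other tool was run. Averaged over both genotypes Rplp1 alone passed, at -0.22 (adjusted p = 0.04), where 16.6% of all tested genes passed, 6.08% higher and 10.5% lower.

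The stalk proteins form the flexible arm of the large subunit that recruits the elongation factors. Rplp1 (mm9 chr9:61761091-61762345, 3 exons) had 395, 385 and 413 RPKM in WT and 501, 425 and 500 in KO at CT0. At CT12 it had 344, 318 and 290 RPKM in WT and 423, 421 and 469 in KO. The KO samples lay above the WT samples at both times, and within WT the CT12 samples lay below the CT0 samples. The difference between KO and WT was 0.46 at CT12 (SE 0.09, adjusted p = 0.008) and 0.25 at CT0 (SE 0.09, adjusted p = 0.23) on the log2 scale. The fall between CT0 and CT12 in WT was -0.33 (SE 0.09, adjusted p = 0.043). That call was lost when any of the WT CT0 samples, WT CT12 replicate 2 or 3, KO CT0 replicate 3 or KO CT12 replicate 1 or 2 was left out, with adjusted p-values up to 0.16 among these. Rplp0, the base of the stalk, had means of 221, 226, 190 and 230 RPKM in WT CT0, KO CT0, WT CT12 and KO CT12, and its difference of 0.28 at CT12 (SE 0.08) had an adjusted p of 0.059. Rplp2, the partner of Rplp1, had 234, 230, 190 and 225 RPKM in the same order, with overlap between genotypes at both times and 0.24 at CT12 (SE 0.12, adjusted p = 0.25).

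Rpl22l1, a paralogue of Rpl22 that can take its place in the large subunit, had the largest difference of all 80 genes at CT12. It lies at mm9 chr3:28704358-28706274 with 4 exons, and its RPKM values were 57.4, 55.8 and 66.9 in WT and 84.7, 67.5 and 87.2 in KO at CT0. At CT12 they were 52.7, 44.6 and 34 in WT and 75.4, 87.9 and 88 in KO, which is 223 to 416 reads in WT and 532 to 588 in KO. All KO samples lay above all WT samples, by a narrow margin at CT0 and a wide one at CT12. The difference was 0.94 at CT12 (SE 0.15, adjusted p = 0.002), 0.67 over both times (SE 0.11, adjusted p = 0.0017) and 0.40 at CT0 (SE 0.15, adjusted p = 0.24). It passed under all 25 alternatives run at CT12, with differences from 0.74 to 1.08, and under all 24 run over both times. The interaction was 0.54 (SE 0.22, adjusted p = 0.32).

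Rpl22 itself had 111 ± 2.75 RPKM in WT and 109 ± 5.24 in KO at CT0, and 109 ± 4.73 in WT and 120 ± 9 in KO at CT12 (SD, n = 3). The genotypes overlapped at both times. Its difference was 0.14 at CT12 (SE 0.08, adjusted p = 0.31) and 0.06 over both times (SE 0.06, adjusted p = 0.59).

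Rps12, a protein of the beak of the small subunit, was among the 3 highest genes of the group and had the second largest difference. Its RPKM values were 425, 492 and 478 in WT and 521, 589 and 601 in KO at CT0, and 410, 416 and 352 in WT and 571, 504 and 615 in KO at CT12. The groups did not overlap at either time. The difference was 0.52 at CT12 (SE 0.11, adjusted p = 0.0083) and 0.41 over both times (SE 0.07, adjusted p = 0.0041). Rpl13a, which in macrophages also leaves the ribosome to restrain inflammatory mRNAs, had 226, 285 and 213 RPKM in WT and 254, 286 and 301 in KO at CT0, with overlap. At CT12 it had 224, 202 and 185 in WT and 269, 268 and 331 in KO, without overlap, and a difference of 0.50 (SE 0.13, adjusted p = 0.028). Leaving out WT CT12 replicate 2, WT CT12 replicate 3 or KO CT12 replicate 3 ended that call (adjusted p = 0.071, 0.11 and 0.1).

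Rpl5 and Rpl11 bind the 5S ribosomal RNA and, outside the ribosome, the p53 ligase MDM2. Rpl5 had 234, 239 and 230 RPKM in WT and 285, 288 and 284 in KO at CT0. At CT12 it had 240, 231 and 223 in WT and 312, 274 and 285 in KO. No KO sample overlapped a WT sample at either time, and the differences were 0.29 at CT0 (SE 0.07, adjusted p = 0.077), 0.32 at CT12 (SE 0.07, adjusted p = 0.015) and 0.30 over both times (SE 0.05, adjusted p = 0.0024). Leaving out WT CT12 replicate 3 (adjusted p = 0.064) or KO CT12 replicate 1 (adjusted p = 0.054) ended the call at CT12, while that over both times held under all 24 alternatives. Rpl11 had group means of 248, 266, 226 and 265 RPKM (WT CT0, KO CT0, WT CT12, KO CT12) and did not pass, with 0.16 over both times (SE 0.06, adjusted p = 0.092).

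**Figure D3:**
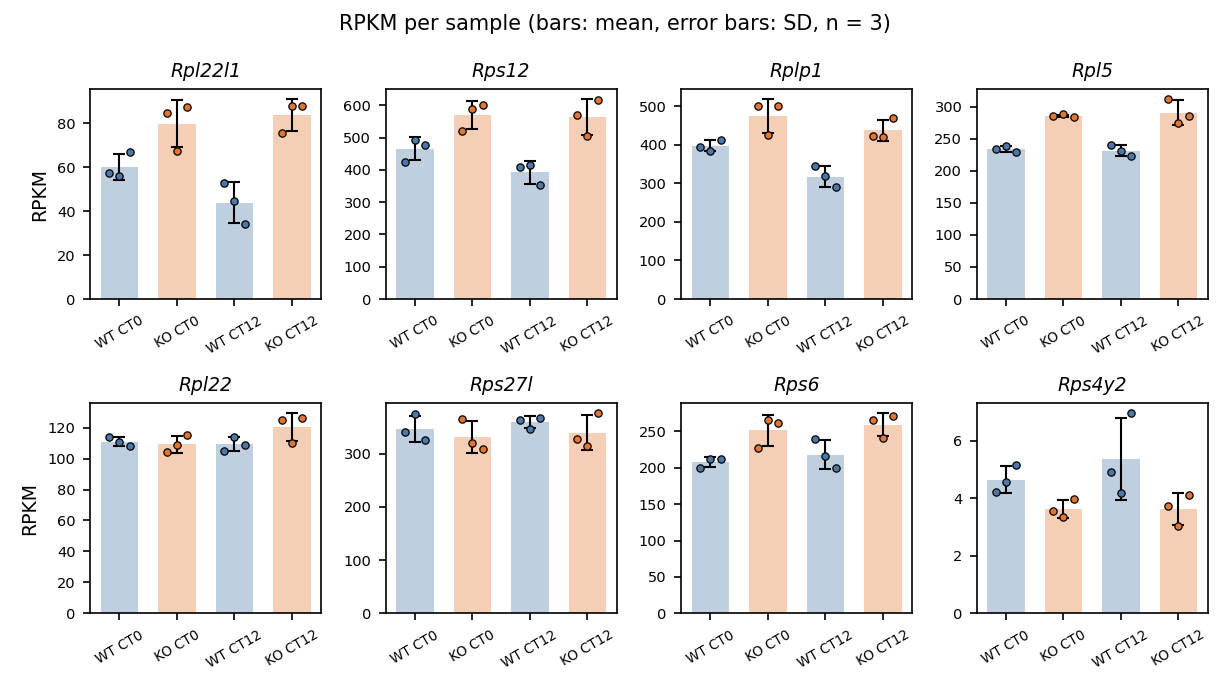
RPKM of 8 ribosomal protein genes in each sample, with group means as bars and SD as error bars (n = 3). Rpl22l1, Rps12, Rplp1 and Rpl5 are higher in all KO samples than in the WT samples of the same time, Rpl22 and Rps27l overlap, Rps6 is higher in KO and Rps4y2, at 3.04 to 6.96 RPKM, is lower in KO.

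Of the remaining genes, Rpl10a, Rps13 and Rps21 were chosen for description after their values were seen. At CT12 the differences of the tested genes ran from 0.14 to 0.94 in the large subunit and from -0.44 to 0.52 in the small subunit, with medians of 0.28 and 0.27. Rpl10a, which forms the mobile L1 stalk of the large subunit, had 177, 178 and 169 RPKM in WT and 195, 214 and 226 in KO at CT0, and 175, 155 and 155 in WT and 221, 209 and 222 in KO at CT12. The groups did not overlap, and the difference was 0.43 at CT12 (SE 0.08, adjusted p = 0.0057) and 0.35 over both times (SE 0.06, adjusted p = 0.0021). Rps13, a protein of the small subunit, had the largest difference at CT12 that did not pass, 0.47 (SE 0.18, adjusted p = 0.13), with 102, 116 and 131 RPKM in WT and 136, 162 and 187 in KO. Its SE was the largest of the 80 genes, and its CT0 samples overlapped, with 147, 157 and 120 in WT and 138, 170 and 227 in KO. Rps21 had the most unequal pair of differences among the small subunit genes, -0.16 at CT0 and 0.25 at CT12, with an interaction of 0.41 (SE 0.17, adjusted p = 0.33) and overlap between genotypes at both times.

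Rps6, the substrate of the S6 kinases through which growth signals reach the small subunit, had 200, 212 and 212 RPKM in WT and 227, 266 and 261 in KO at CT0. At CT12 it had 239, 216 and 199 in WT and 265, 241 and 271 in KO. The groups did not overlap, and the difference was nearly the same at both times, at 0.27 and 0.25 (SE 0.09 each, adjusted p = 0.2 and 0.12). Over both times it was 0.26 (SE 0.07, adjusted p = 0.026), a call that held under 10 of 24 alternatives and was lost, with adjusted p-values up to 0.067, when any 1 sample other than WT CT0 replicate 3, WT CT12 replicate 1, KO CT0 replicate 1 or KO CT12 replicate 2 was left out. Rps27a, which is made as a fusion with ubiquitin, had means of 270, 290, 253 and 320 RPKM in the order above. It passed at CT12 with 0.33 (SE 0.08, adjusted p = 0.027) and over both times with 0.22 (SE 0.06, adjusted p = 0.035). The CT12 call ended when WT CT12 replicate 2 or 3 or KO CT12 replicate 3 was left out (adjusted p = 0.059, 0.1 and 0.084).

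Rpl3, near the peptidyl transferase centre, had means of 205, 235, 186 and 229 RPKM in that order and differed by 0.30 at CT12 (SE 0.08, adjusted p = 0.037), a call lost with adjusted p-values up to 0.15 when WT CT12 replicate 2 or 3, WT CT0 replicate 2 or 3 or any KO CT12 sample was left out. Rpl10, one of the last proteins to join the large subunit, was the second highest gene of the group and had means of 581, 636, 535 and 650 RPKM. Its difference at CT12 was 0.28 (SE 0.08, adjusted p = 0.042), and it passed under 6 of 25 alternatives, with the call lost when any 1 sample other than KO CT0 replicate 1 was left out (adjusted p-values up to 0.13). Rpl7 and its distant relative Rpl7l1 did not pass at any time, with 0.18 (SE 0.06, adjusted p = 0.071) and 0.17 (SE 0.09, adjusted p = 0.28) over both times. Rpl39, at the end of the peptide exit tunnel, had 0.30 at CT12 (SE 0.10, adjusted p = 0.088) and -0.02 at CT0 (SE 0.10, adjusted p = 0.95).

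Some genes were nearly level or lower in KO over both times, and of these Rps27, Rps27l, Rps4x and Rps4y2 are described next. Rpl22 and Rps21, described above, differed by 0.06 and 0.05 over both times. Rps27 was the highest gene of the group at a mean of 613 RPKM and had 572, 627 and 559 RPKM in WT and 519, 659 and 629 in KO at CT0, with 572, 652 and 578 in WT and 643, 607 and 736 in KO at CT12. The genotypes overlapped at both times, and the difference was 0.09 over both (SE 0.08, adjusted p = 0.55). Its paralogue Rps27l, a target of p53, had means of 347, 332, 359 and 340 RPKM in WT CT0, KO CT0, WT CT12 and KO CT12 and a difference of -0.07 over both times (SE 0.07, adjusted p = 0.56). Rps4x, the X-linked protein of the small subunit, had 276, 281, 255 and 278 RPKM and 0.07 over both times (SE 0.06, adjusted p = 0.49).

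Rps4y2, a paralogue of Rps4x annotated here as a single exon at mm9 chr6:148303178-148304120, was the lowest tested gene at a mean of 4.32 RPKM. It had 4.21, 4.57 and 5.15 RPKM in WT and 3.56, 3.35 and 3.98 in KO at CT0, and 4.93, 4.19 and 6.96 in WT and 3.75, 3.04 and 4.11 in KO at CT12. These values rest on 38 to 88 reads. KO lay below WT at both times, and the difference was -0.36 over both (SE 0.11, adjusted p = 0.049), a call that held under 10 of 24 alternatives and was lost when any 1 sample other than WT CT12 replicate 2 was left out (adjusted p-values up to 0.11). How reads shared with Rps4x were counted is not given in the sources used here, so this value is uncertain. Rps20, a protein of the head of the small subunit, is represented by a transcript of 3706 bases, the only one of this gene in the files, with a mean of 36.6 RPKM. Its difference at CT12 was 0.30 (SE 0.10, adjusted p = 0.069).

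The 3 genes that were not tested are paralogues known from other tissues. Rpl10l and Rpl39l are used in testis and Rpl3l in heart and skeletal muscle. Rpl10l was listed at 0 in every sample, Rpl39l had 1 read in 1 of the 12 samples, and Rpl3l had 0 to 2 reads in each sample.

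Among ribosomal proteins whose names fall outside the symbol rule, Rpsa, Fau and Rpl36al had differences of 0.18, 0.22 and 0.08 at CT12 and did not pass there or over both times (limma, adjusted p = 0.32, 0.14 and 0.59 at CT12). Gnb2l1 (RACK1, on the head of the small subunit) passed at CT12, with 167, 162 and 151 RPKM in WT and 188, 182 and 210 in KO and a difference of 0.27 (SE 0.08, adjusted p = 0.048). The samples did not overlap. Its difference over both times was 0.21 (SE 0.06, adjusted p = 0.027).

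The proteins of the mitochondrial ribosome, which the cell makes from separate genes, had smaller differences between genotypes. Of 76 tested, 1 was higher at CT12 (Mrpl18, 0.38, SE 0.09, adjusted p = 0.019) and 3 were higher over both times, or 1.32% and 3.95%, below the background of 10.5% and 11.5%. Their median was 0.09 at CT0 and 0.10 at CT12, against 0.15 and 0.28 for the cytosolic genes and 0.01 and 0.08 over all tested genes. The difference between the lists was not tested.

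Other mRNAs known to carry a TOP motif were followed as well, 14 of 16 listed. Of these, 4 were higher in KO over both times (28.6%, background 11.5%), the elongation factor genes Eef1a1, Eef1b2 and Eef1g and the initiation factor gene Eif3h, with a median of 0.18 over the 14. Eef1a1 had 2448, 2497 and 2579 RPKM in WT and 2684, 3216 and 3055 in KO at CT0, without overlap. At CT12 the values were 2643, 2470 and 2422 in WT and 2947, 2741 and 3120 in KO, again without overlap, and the difference over both times was 0.24 (SE 0.07, adjusted p = 0.038). At CT12 alone 1 of the 14 passed, Npm1 (7.14%, background 10.5%, 6.97% higher).

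Genes for ribosome assembly and RNA polymerase I, unlike the ribosomal protein genes, often passed the test between times. Of 38 tested, 17 were higher and 1, Taf1b, was lower at CT12 than at CT0 over both genotypes (47.4%, background 16.6%), with a median of 0.32 against -0.06 for the ribosomal protein genes. In WT 8 were higher (21.1%, background 11.6%, 3.71% higher) and in KO 4 (10.5%, background 2.43%, 1.1% higher), with medians of 0.28 and 0.33. Rrn3, the initiation factor of RNA polymerase I, had 5.78, 6.39 and 6.28 RPKM at CT0 and 12.1, 9.43 and 9.83 at CT12 in WT. In KO it had 7.55, 7.38 and 5.55 at CT0 and 11.4, 8.59 and 10.3 at CT12. The times did not overlap in either genotype, and the difference was 0.59 over both (SE 0.09, adjusted p = 0.002). Polr1a, the largest subunit of that polymerase, rose by 0.50 (SE 0.08, adjusted p = 0.0025) and Gnl3, a nucleolar GTPase, by 0.83 (SE 0.15, adjusted p = 0.0046). Between genotypes 2 of the 38 passed at CT12 (Npm1 and Polr1c) and 2 over both times, 5.26% each, below the background of 10.5% and 11.5%.

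**Figure D4:**
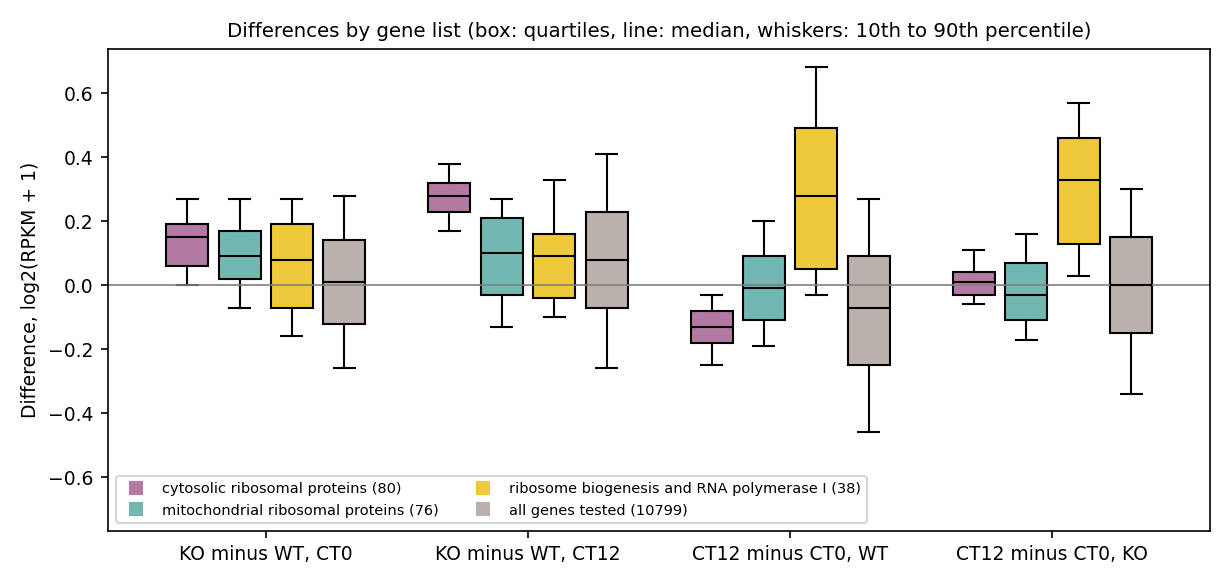
Differences on the log2(RPKM + 1) scale for 4 sets of genes and the 4 comparisons of 2 groups, with boxes for the quartiles, lines for the median and whiskers for the 10th to 90th percentile. The cytosolic ribosomal protein genes have medians of 0.15 and 0.28 between genotypes and -0.13 and 0.01 between times, while the ribosome assembly genes have 0.28 and 0.33 between times.

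A further list held 24 tested genes. It joined genes for the translation of ribosomal protein mRNAs (mTOR complex, S6 kinases, eIF4E and its binding proteins, Larp1) with the transcription factor Myc and its partners. None of the 24 passed between genotypes at either time or over both (limma), where 11.5% of all tested genes passed over both. At an unadjusted p under 0.05 there were 2 at CT0, 5 at CT12 and 3 over both times. Of all tested genes 14.2%, 24.9% and 25.4% were under that p, and no other tool was run. Over both genotypes 3 were higher (Eif4ebp3, Eif4b and the S6 kinase gene Rps6kb1) and 2 lower (Larp1 and Tsc1) at CT12, which is 20.8% of the list and near the background of 16.6%. Eif4ebp3, an inhibitor of eIF4E, had 12.2, 18.6 and 12.6 RPKM at CT0 and 78.3, 33.5 and 38.1 at CT12 in WT, a difference of 1.64 (SE 0.32, adjusted p = 0.0073). In KO it had 11.8, 12.9 and 14.1 RPKM at CT0 and 44.3, 21.3 and 20.7 at CT12. Larp1 fell between CT0 and CT12 in WT from 17.1, 19 and 19 RPKM to 11.6, 13.6 and 13.1 (-0.49, SE 0.14, adjusted p = 0.039).

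Markers of other cell types were read beside these results. The summed RPKM of 3 neutrophil markers ranged from 26.3 to 90.8 in WT and 84.2 to 178 in KO at CT0, and from 4.57 to 6.98 in WT and 15.8 to 36.1 in KO at CT12, so it was higher in KO at CT12 and far lower at CT12 than at CT0. That of 5 cholangiocyte markers ranged from 48.6 to 64.8 in WT and 93.1 to 152 in KO at CT0, and from 27.2 to 50 in WT and 88.4 to 124 in KO at CT12, with Spp1 the 1 that passed between genotypes (1.16 at CT0 and 1.56 at CT12, adjusted p = 0.024 and 0.00075). Most of that sum was Spp1, with means of 52.1 and 119 RPKM in WT and KO at CT0 and 35.5 and 105 at CT12. The other cholangiocyte markers lay near the floor, with group means of at most 1.26 RPKM. Krt7 differed by -0.40 and -0.17 (limma, adjusted p = 0.39 and 0.66) and Krt19 by 0.31 and -0.03 (adjusted p = 0.67 and 0.9). Epcam differed by 0.42 and 0.10 (adjusted p = 0.5 and 0.85). Sox9 was too low for testing, with means of 0.737 and 0.916 RPKM in WT and KO at CT0, with overlap. At CT12 it had 0.228 and 0.815, without overlap. The sum of 5 hepatocyte markers, most of it Alb, ranged from 43673 to 48762 in WT and 27483 to 32854 in KO at CT0, and from 35711 to 44375 and 23894 to 27092 at CT12. Of these markers only Alb was called between genotypes. Apoa1, Ttr, Cps1 and Serpina1a differed by -0.30, 0.05, 0.37 and -0.26 at CT0 and by 0.25, 0.10, 0.09 and 0.03 at CT12. No marker of Kupffer cells (7), endothelium (6) or stellate cells (6) was called between genotypes. Between times in WT these sums were lower at CT12 without overlap, from 113 to 147 RPKM at CT0 to 69.7 to 106 for Kupffer cells, from 83.4 to 102 to 55.6 to 65.4 for endothelium and from 119 to 160 to 87.8 to 102 for stellate cells. Of single markers Emr1, Tek and Dcn, 1 of each type, fell in WT (-0.66, -0.57 and -0.60, limma, adjusted p = 0.048, 0.035 and 0.013), beside the median of -0.13 for the ribosomal protein genes. Krt7 was also called in WT (-0.75, limma, adjusted p = 0.032). Only its WT CT0 mean reached 1 RPKM (1.06, against 0.219 in WT at CT12). That group alone admitted Krt7 to the test, so nothing is drawn from its fall. The neutrophil markers S100a8 and S100a9 and the red cell marker Hba-a2 fell further in WT (-2.62, -2.58 and -0.94, limma, adjusted p = 0.0026, 0.0015 and 0.039). Of 4 red cell markers Hba-a2 was higher in KO at CT12 and Alas2 lower over both times, none of 6 lymphocyte markers reached the level for testing, and of 4 proliferation markers 2 were tested and none was called. No marker was at 0 in all samples. The part of these cells in the ribosomal protein values was not tested.

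The transcripts of the ribosomal protein genes were short and abundant. Their median length was 630 bases (78 of 80 genes with a length) against 1892 bases for the other tested genes, their median GC content 51.3% against 50.7%, and their median level 247 RPKM against 6.62. With trends of GC content and length removed from each sample, 8 genes were called at CT12 and 24 over both times, and the medians were 0.18 and 0.15, on a scale where the median over all tested genes lies at 0. Across genes the difference over both times had a Pearson's r of 0.12 and a Spearman's rho of 0.30 with length, and -0.06 and 0.02 with GC content.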

How the data were processed

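Liver RNA of 12 samples in 4 groups was sequenced, and the authors deposited 1 table of RPKM values per sample for 46585 Ensembl transcripts, with no pooling. The submitters' processing notes name TopHat2, bedtools 2.19.1 and the build mm9. The annotation release, the use of strand and the counting of reads shared between transcripts, paralogues or pseudogene copies are not given in the sources used here, so the values of ribosomal protein genes, which have many copies, are uncertain.

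RPKM values are not counts, so log2(RPKM + 1) was analysed, a scale that understates changes of low genes. The transcript with the highest mean RPKM stood for each symbol, and 175 of the transcripts belonged to the 83 genes. The 4 group means were fitted with limma 3.58.1 in R 4.3.3 (lmFit, eBayes with trend) on the 10799 genes with a group mean of at least 1 RPKM. P-values were adjusted by Benjamini-Hochberg over these genes, with a threshold of 0.05, for 7 contrasts (4 between pairs of groups, genotype, time and interaction). All tests are two-sided. The fit was tested on simulated data. Lengths, GC content, exons and mm9 positions came from GENCODE vM1, depth from the step between low RPKM values multiplied by length (95.0% to 95.8% of low values lay on steps). The log2 values of replicates had a Pearson's r of 0.979 to 0.9894 across genes. Precision is limited by the 3 samples per group. Tables were joined with pandas 2.3.3 and plotted with matplotlib 3.10.9 in Python 3.11.15.

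The genes and lists were chosen with earlier results of these data known. Genes were named by the 3 largest rises and falls past the threshold in each contrast between pairs of groups and in the interaction, the 3 highest and 3 lowest mean RPKM, and role, with Arntl added; genes named from the other lists, Rpl10a, Rps13 and Rps21 and the genes whose start windows are printed were chosen after their values were seen. Some genes are not reported by name here. Alternatives were a pseudocount of 0.1, no filter, at least 1 RPKM in every sample, quantile normalization, centring on the other genes, the sum over transcripts, the longest transcript, subtraction of lowess trends (span 0.3) on GC content and length, the replicate number as a block, the 6 samples compared alone, and leaving out each sample. The rescaling on reads outside the 10 highest genes and leaving out both replicates 3 of CT12 were added after the data were seen.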

Additional observations from a re-analysis of the deposited data

How the results depend on the processing

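The direction of the 20 differences called among the named genes held under every alternative run, and of the 127 not called 5 were called under at least 1. The count of ribosomal protein genes called did depend on the processing. At CT12 it was 28 and became 9 with centring on the other genes, 8 with GC and length trends removed, 7 with only the 6 samples compared, 6 with values rescaled to the reads outside the 10 highest genes and 1 without both replicates 3 of CT12, with 4 to 29 when single samples were left out. Over both times it was 40 and became 24 with centring, 24 with the trends removed, 10 with the rescaling and 10 without both replicates 3, with 20 to 41 when single samples were left out. Fewer samples lower the power by construction, and for the other settings the cause was not tested. For time in WT it was 1 and became 0 with no filter, with centring, with the trends removed, with the 6 samples alone and without both replicates 3, 2 with quantile normalization and 3 with the rescaling, with 0 to 2 when single samples were left out. For time over both genotypes it was 1 and became 0 with no filter, with the trends removed and without both replicates 3, 2 with the pseudocount of 0.1, the summed transcripts or the longest transcript, and 3 with quantile normalization or the rescaling, with 0 to 2 when single samples were left out.

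The median difference was 0.28 at CT12 and became 0.20 with centring, 0.18 with the trends removed, 0.20 with the rescaling and 0.17 without both replicates 3. The rescaling gave 0.06 at CT0 (0.15 before) and 0.13 over both times (0.21 before). Removal of the trends gave -0.03 for time in WT (-0.13 before) and 0.05 for the interaction (0.13 before), where leaving out both replicates 3 gave 0.04. When single samples were left out the medians ran from 0.11 to 0.18 at CT0, 0.22 to 0.32 at CT12 and 0.18 to 0.23 over both times. The excess of the summed RPKM in KO ran from 7.65% to 12.1% at CT0 and 16.1% to 24.8% at CT12, and its time difference in KO from -3.36% to 3.88%.

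All groups use the replicate numbers 1 to 3. Deviations from the group means were compared between samples over all tested genes. Samples with the same number had correlations of -0.0665 to 0.139 (mean 0.00825, against -0.00407 for different numbers), so no pairing was used in the main fit. Single genes, picked after their values were seen, differed in this at CT12. Myc was highest in replicate 2 of both genotypes (6.81 RPKM in WT and 6.47 in KO). Eif4ebp3 was highest in replicate 1 of both (78.3 and 44.3), while Larp1 in replicate 1 was lowest in WT (11.6) and highest in KO (17.7). Whether samples of the same number share a collection or batch was not tested. A block on the replicate number left 20 genes called at CT12, 28 over both times and 0 for time in WT. With the block and the GC and length trends removed together these were 5, 12 and 0, with 0 for time over both genotypes and medians of 0.18 at CT12, -0.03 for time in WT and 0.05 for the interaction.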

Other observations

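The files list 26 symbols named as pseudogene copies of ribosomal protein genes. One of them, Rpl9-ps6, reached the level for testing, with means of 3.69 RPKM in WT and 3.91 in KO at CT0 and 3.3 in WT and 4.22 in KO at CT12 (0.25 at CT12, adjusted p = 0.45 by limma), while its parent Rpl9 had 292, 309, 263 and 332 RPKM in the same order. The other 25 lay between 0 and 0.231 RPKM over the 12 samples, the highest being Rpl21-ps7, so few reads were listed under copies with such names. Copies with other names were not searched.

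Among the letters read in the promoter windows, Rpl13a, Rpl14 and Rps19 of the 6 genes with CACGTG were called at CT12 and their median difference was 0.30, against 0.28 over the 80 genes. Of 13 genes with a C and at least 4 more pyrimidines at the annotated start 2 were called at CT12, with a median of 0.28. Of 23 tested genes with CCGGAAG 4 were called, with a median of 0.26. Beside these counts stand 35% called among the 80 genes and 10.5% among all tested genes, and no test was made of the shares. The letters could be read only in the 61 genes with a window. The 35% and the median of 0.28 also cover genes without one, and the share called among genes with a window was not computed.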
